A study of Mus musculus with 18 samples.

Results

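The measurement described here was the difference between 2 genotypes in how muscle gene expression changed from disuse to renewed use. It was the change from unloading to reloading in libraries labelled mKO minus the same change in libraries labelled flox/flox, called the interaction below. It drew on 12 of the 18 libraries of the series, 3 in each of 4 groups: flox/flox unloaded for 10 days, mKO unloaded for 10 days, flox/flox reloaded for 3 days and mKO reloaded for 3 days. The other 6 libraries, flox/flox and mKO mice kept in ordinary cages, entered only the estimate of the spread. All mice were female C57BL/6, and the tissue was the gastrocnemius, the large muscle of the calf. Per the design text, mKO is a conditional deletion of Zfp697, a zinc finger gene, in skeletal muscle. The age, the Cre driver and the deleted part of the gene are not given in the sources used here, nor is the length of unloading before reloading. No label ties the libraries of a group to separate animals, and p-values therefore measure only how these samples spread, which may be technical.

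Hindlimb unloading takes body weight off the calf, and its muscles lose mass. When weight returns, fibres meet mechanical load while they are weak, some are injured, and macrophages, fibroblasts, endothelial cells and muscle stem cells become active and divide around them. RNA from whole muscle holds all of these cells together, so that fewer cells of a type and less RNA per cell cannot be told apart in any result below. Genes of the fast sarcomere list, which mark skeletal muscle fibres, summed to 155130 to 205871 CPM (counts scaled to a fixed library total) over the 12 libraries. Of 11 skin and keratinocyte genes, Krt5 and Krt1 were at 0 in all 12. The 11 summed to 13.3 to 19.4 CPM. Libraries held 45069595 to 51592566 counted reads. Zfp697 (ENSMUSG00000050064, chromosome 3, 98382461 to 98753812, plus strand, GRCm38) is low in this tissue. At unloading Zfp697 read 1.58, 1.74 and 1.61 CPM in flox/flox and 2.47, 1.09 and 1.41 CPM in mKO. At reloading Zfp697 read 2.79, 2.33 and 2.57 CPM in flox/flox and 1.6, 1.95 and 1.48 CPM in mKO. The genotypes overlapped at unloading and not at reloading. The interaction for Zfp697 was -0.62 ± 0.36 (SE) on the log2 scale, with a 95% interval of -1.37 to 0.12 (edgeR adjusted p = 0.558). In mice kept in ordinary cages, Zfp697 averaged 1.19 CPM in flox/flox and 1.2 CPM in mKO. Its counts cover the whole gene model, the deleted part is not given, and the cells of the muscle were not separated. These values therefore do not check the genotype labels.

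Anln, Prc1, Incenp, Knl1, Ncapg2 and Smc4, which are among the 20 genes of smallest interaction p below, act in cell division, whose genes are commonly controlled through a pair of promoter elements. One is the CCAAT box, bound by the factor NF-Y, and the other is the cell cycle genes homology region (CHR), bound by the DREAM and MuvB complexes. The promoters of 3 division genes with an interaction below 0, Anln, Prc1 and Ccnb2, are printed with that of Ptgs2, an inflammatory gene, for contrast. Ccnb2 was chosen after its values were seen. Each is a 300-base RefSeq window around the start site in GRCm38.p6, 5′ to 3′ on the strand of the gene. Capitals mark CCAAT or TTTGAA, the form of the CHR that was searched, on either strand (ATTGG and TTCAAA on the other), and no marked matches overlap.
Anln, chr9:22389157-22389456, minus strand: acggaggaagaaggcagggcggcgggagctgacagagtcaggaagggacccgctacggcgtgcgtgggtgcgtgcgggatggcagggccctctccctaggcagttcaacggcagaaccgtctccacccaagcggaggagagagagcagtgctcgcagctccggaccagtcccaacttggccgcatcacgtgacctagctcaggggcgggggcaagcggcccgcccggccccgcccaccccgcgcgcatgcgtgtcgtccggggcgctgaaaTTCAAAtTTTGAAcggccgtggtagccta
Prc1, chr7:80294201-80294500, plus strand: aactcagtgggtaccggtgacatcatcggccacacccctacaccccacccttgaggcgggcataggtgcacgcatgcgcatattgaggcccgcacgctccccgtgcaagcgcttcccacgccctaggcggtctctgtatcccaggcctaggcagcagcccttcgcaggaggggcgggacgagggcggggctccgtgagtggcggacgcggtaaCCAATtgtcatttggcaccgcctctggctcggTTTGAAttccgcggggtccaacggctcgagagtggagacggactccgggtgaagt
Ccnb2, chr9:70421505-70421804, minus strand: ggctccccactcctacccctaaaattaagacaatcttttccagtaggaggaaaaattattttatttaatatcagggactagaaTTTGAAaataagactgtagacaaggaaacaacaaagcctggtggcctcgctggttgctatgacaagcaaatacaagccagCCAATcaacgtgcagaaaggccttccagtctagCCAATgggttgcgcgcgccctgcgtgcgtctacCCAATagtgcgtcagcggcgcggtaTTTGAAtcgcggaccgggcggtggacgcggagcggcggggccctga
Ptgs2, chr1:150099781-150100080, plus strand: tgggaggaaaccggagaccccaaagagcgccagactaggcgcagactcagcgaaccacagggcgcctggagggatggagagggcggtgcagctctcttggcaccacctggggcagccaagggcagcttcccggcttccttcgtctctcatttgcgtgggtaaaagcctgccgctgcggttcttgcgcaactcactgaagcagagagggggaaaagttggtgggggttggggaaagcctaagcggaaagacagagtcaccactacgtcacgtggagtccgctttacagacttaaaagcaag
Anln held 2 CHR matches on opposite strands near the start, Prc1 held 1 CCAAT and 1 CHR, Ccnb2 held 3 CCAAT and 2 CHR, and Ptgs2 held neither. Of all 32851 mouse promoters in the table, 37.4% held a CCAAT, 17.9% a CHR and 6.95% both. For 26 of 30 genes of the mitosis list described below, 28 promoters were found, of which 82.1% held a CCAAT, 78.6% a CHR and 71.4% both. For 16 of the 20 genes of smallest interaction p, 22 promoters were found, of which 45.5% held a CCAAT, 31.8% a CHR and 13.6% both. Knl1 and Ncapg2, not printed, each held 1 CHR and 0 CCAAT. For genes with a lower change in mKO in the authors' deposited table described below, 103 promoters were found. Of these 44.7% held a CCAAT, 22.3% a CHR and 13.6% both. Of 24 promoters of the genes with a higher change there, 50% held a CCAAT, 29.2% a CHR and 16.7% both. A match is a description of these letters only.

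Reloading changed the expression of many genes in both genotypes, and most genes that changed on average moved less far in mKO, a difference that did not pass its exact test. From unloading to reloading, 5692 of 17833 tested genes changed in flox/flox (31.9%, edgeR adjusted p under 0.05), with 3032 higher (17%) and 2660 lower (14.9%). In mKO 3270 changed (18.3%), with 1699 higher (9.53%) and 1571 lower (8.81%). The split in flox/flox depended on scaling, with 3987 higher and 1569 lower when libraries were scaled to total counts. The difference between these counts is not a test. Averaged over both genotypes, 7171 genes changed (3769 higher and 3402 lower, or 4477 and 2472 with total counts), and these served to compare the size of the response. Each gene was signed so that its average direction counted as positive. The median change was 0.51 in flox/flox and 0.38 in mKO on the log2 scale. The change was smaller in mKO for 5087 of the 7171 genes (70.9%), and the mKO changes summed to 72.8% of the flox/flox changes. Rises summed to 69.1% and falls to 79.0% of their flox/flox size. For the 239 genes with an average change over 2, the medians were 2.80 and 1.85, and 199 of them changed less in mKO.

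The distance of each library from the mean of the 6 unloading libraries, taken as the signed median over the 7171 genes, was 0.51, 0.55 and 0.47 in flox/flox reloading. It was 0.37, 0.43 and 0.32 in mKO reloading, so that all 3 mKO libraries stood below all 3 flox/flox libraries. The 6 unloading libraries ran from -0.040 to 0.055, and the genotypes overlapped there. Taken as the median of the gene-wise differences, the change in mKO minus that in flox/flox was -0.13 (two-sided exact permutation test over 400 relabellings, p = 0.115). At reloading alone it was -0.14 (exact permutation p = 0.1, the smallest that 20 relabellings allow), and at unloading alone -0.019 (exact permutation p = 0.8). The smaller response of mKO therefore did not pass the exact test. Leaving out any 1 of the 12 libraries gave values of -0.16 to -0.094, with exact permutation p of 0.08 to 0.255.

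**Figure D1:**
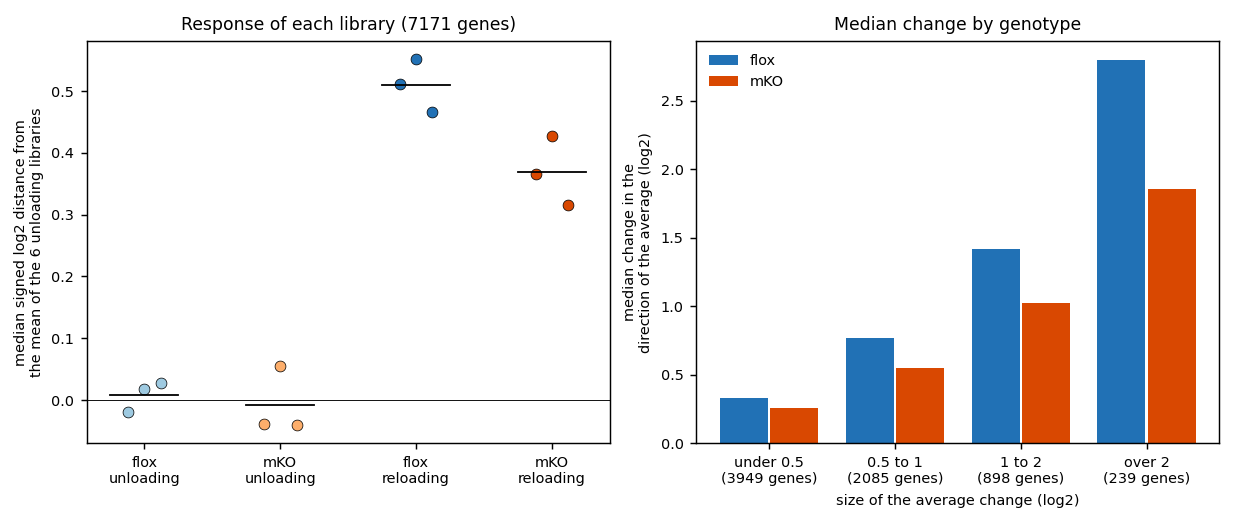
Left, the median signed log2 distance of each of the 12 libraries from the mean of the 6 unloading libraries over 7171 genes (points, libraries; lines, group means); the 3 mKO reloading libraries (0.32 to 0.43) lie below the 3 flox/flox reloading libraries (0.47 to 0.55). Right, the median log2 change of each genotype in the direction of the average, by size of the average change; the mKO bar is the shorter in each of the 4 size classes.

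**Figure D2:**
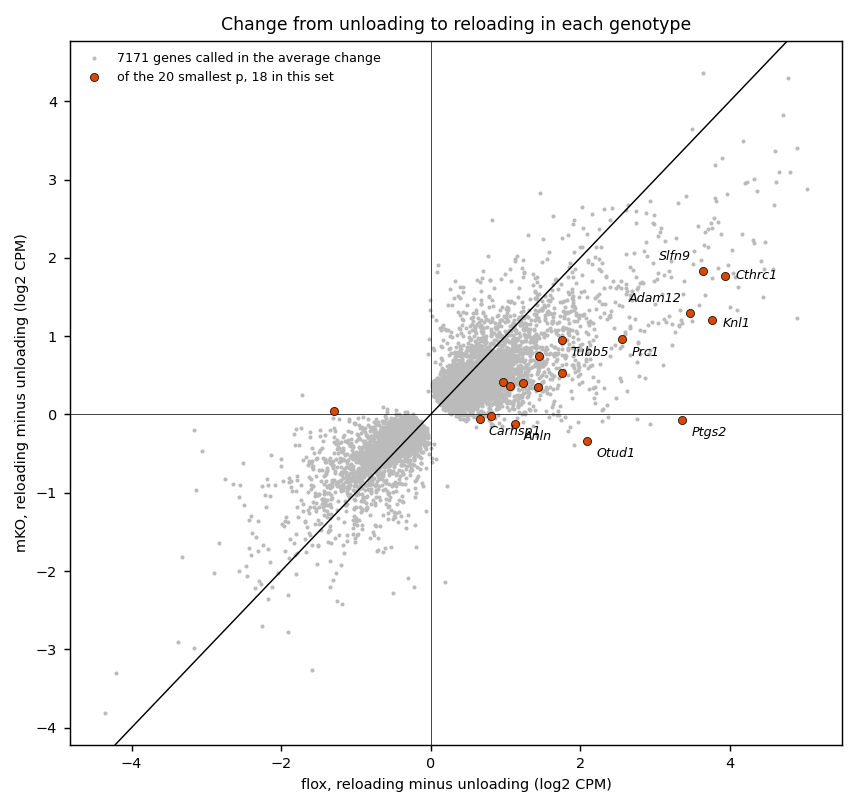
The log2 change from unloading to reloading in mKO (vertical) against flox/flox (horizontal), both from the mean log2 CPM of 3 libraries, for 7171 genes (grey) and the 18 of them among the 20 genes of smallest interaction p (orange). On the diagonal line the changes are equal; most genes with large rises lie below it.

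No single gene passed the interaction test with edgeR. Its quasi-likelihood test called 0 of 17833 genes (0%), and the smallest adjusted p was 0.0671. At an unadjusted p under 0.05 there were 1132 genes with a lower change in mKO (6.35%) and 741 with a higher one (4.16%). For the interaction, lower and higher refer below to this change and not to the level in mKO. The median interaction of all tested genes was 0.0015, and 49.7% were below 0. Other tests of the same contrast called from 1 gene (limma voom, Carhsp1) to 144 (DESeq2, 128 with a lower and 16 with a higher change in mKO). Leaving out mKO reloading replicate 2 raised the edgeR count from 0 to 98, and leaving out mKO unloading replicate 3 raised it to 3. The authors' deposited table named for mKO reloading against unloading holds this contrast. Its p-values matched those of a DESeq2 interaction refitted here to within 1% for 17706 of 17706 genes, against 0.57% to 1.07% of genes for the other contrasts. At an adjusted p under 0.05 the authors' deposited table calls a lower change in mKO for 129 genes (0.729%) and a higher one for 16 (0.0904%). In edgeR these 145 genes had the same sign in 145 cases and unadjusted p of at most 0.00282, with adjusted p from 0.0671 to 0.21. Why the counts of the tools differ was not tested.

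**Figure D3:**
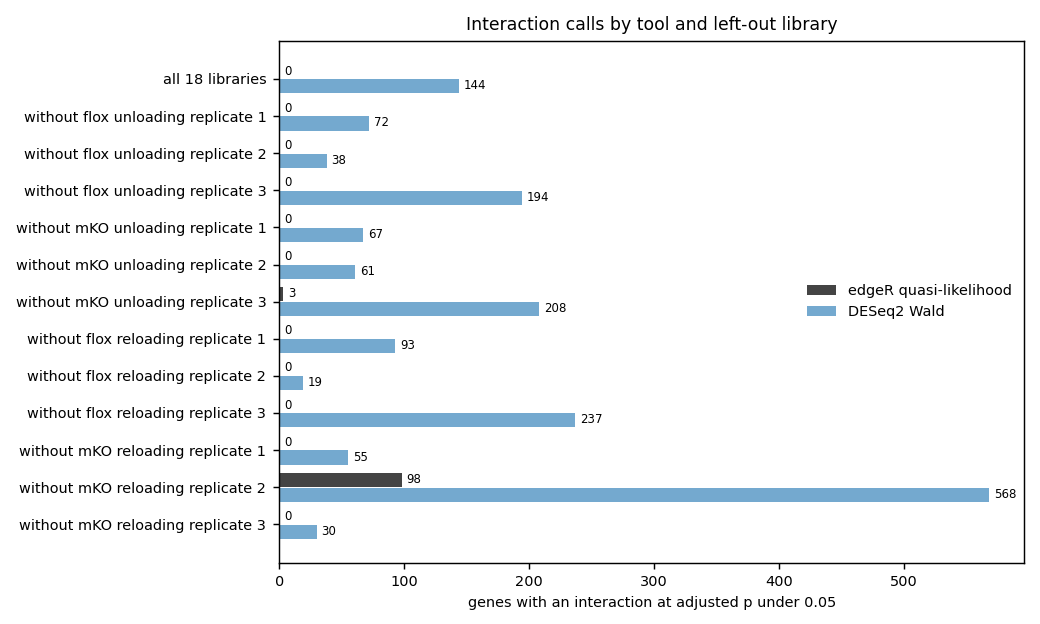
The number of genes with an interaction at an adjusted p under 0.05 (horizontal) by edgeR (dark) and DESeq2 (light), with all 18 libraries and without each of the 12 unloading and reloading libraries. The edgeR count was 0 except without mKO unloading replicate 3 (3) and mKO reloading replicate 2 (98); the DESeq2 count ran from 19 to 568.

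Direct comparison of the genotypes by edgeR gave calls in reloaded muscle and none at unloading. At unloading edgeR called 0 genes (0%), with 816 at an unadjusted p under 0.05, and DESeq2 and limma voom also called 0. At reloading edgeR called 686 lower (3.85%) and 189 higher (1.06%) in mKO. With total counts the reloading split was 1449 lower and 36 higher. The rest of the account takes the 20 genes of smallest interaction p, none of which passed, and gene lists by function. Of these 20, 17 had a lower and 3 a higher change in mKO. All 17 rose in flox/flox with reloading (17% of all tested genes) and the 3 others fell (14.9% of all tested genes). In mKO 12 of the 20 rose (9.53% of all tested genes) and 0 fell (8.81% of all tested genes), each at an edgeR adjusted p under 0.05. The interaction and these changes share libraries, so that the counts describe the genes and do not test them. At reloading the genotypes did not overlap in 20 of 20 genes, against 22.4% of all tested genes. There edgeR called 19 of the 20, against 3.85% lower and 1.06% higher of all tested genes. At unloading they did not overlap in 5, against 9.29% of all tested genes, and it called 0. All 20 are among the 145 called in the authors' deposited table.

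**Figure D4:**
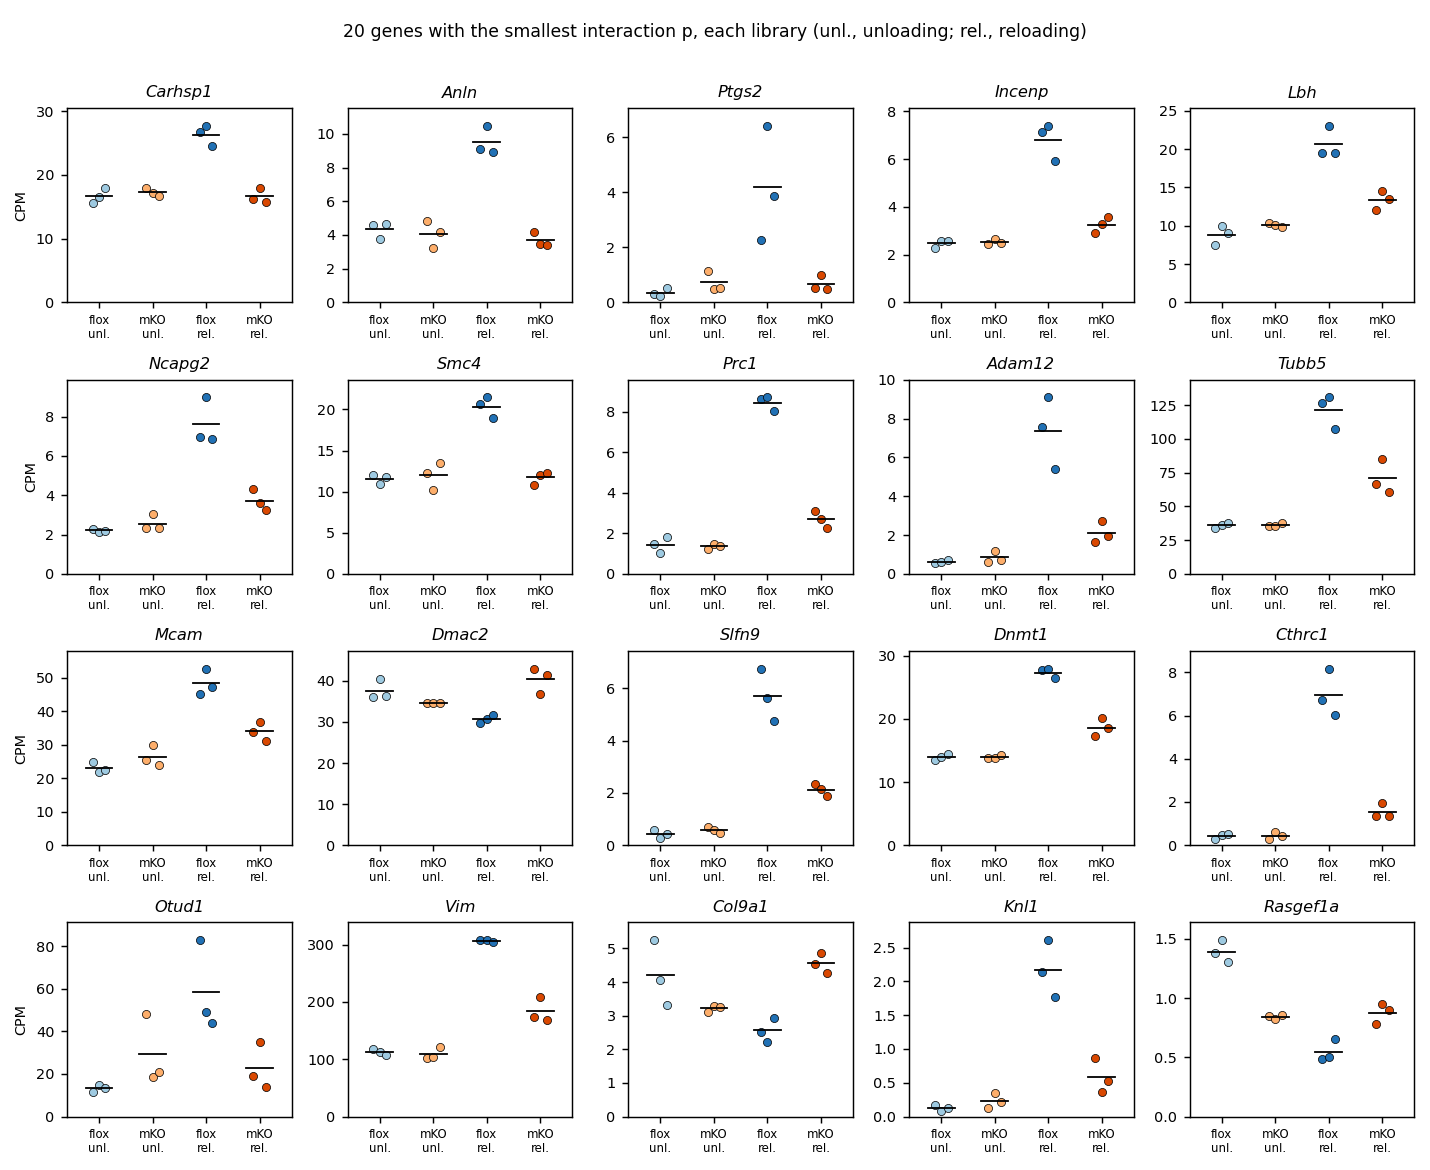
CPM of the 20 genes of smallest interaction p in each of the 12 libraries (points, libraries; lines, means of 3; each vertical axis starts at 0). In each gene the 3 mKO reloading libraries lie apart from the 3 flox/flox reloading libraries, below them in 17 genes and above them in Dmac2, Col9a1 and Rasgef1a.

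Carhsp1 (ENSMUSG00000008393, chromosome 16), which encodes an RNA-binding cold-shock protein, had the smallest p. At unloading Carhsp1 read 15.6, 16.5 and 18 CPM in flox/flox and 17.9, 17.2 and 16.7 CPM in mKO. At reloading Carhsp1 read 26.8, 27.7 and 24.5 CPM in flox/flox and 16.2, 18 and 15.8 CPM in mKO. It rose in flox/flox by 0.66 ± 0.08 and not in mKO, where the change was -0.051 ± 0.08, and all 3 flox/flox reloading libraries stood above every other library. The interaction was -0.71 ± 0.11 (SE) (edgeR adjusted p = 0.0671), and limma voom called it. Without each library in turn, and under the other settings run, the value stayed between -0.80 and -0.66.

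Of the 20 genes, Anln and Prc1 belong to the mitosis and cytokinesis list described below. Anln (ENSMUSG00000036777, chromosome 9), anillin, builds the contractile ring that separates daughter cells. At unloading Anln read 4.59, 3.78 and 4.64 CPM in flox/flox and 4.85, 3.21 and 4.17 CPM in mKO. At reloading Anln read 9.12, 10.5 and 8.95 CPM in flox/flox and 4.2, 3.49 and 3.42 CPM in mKO. The flox/flox reloading libraries stood above the other 9 libraries, which overlapped. Its interaction was -1.27 ± 0.23 (SE) (edgeR adjusted p = 0.0671). Prc1 (ENSMUSG00000038943, chromosome 7) bundles the microtubules of the central spindle. At unloading Prc1 read 1.46, 1.03 and 1.8 CPM in flox/flox and 1.2, 1.48 and 1.39 CPM in mKO. At reloading Prc1 read 8.61, 8.71 and 8.03 CPM in flox/flox and 3.09, 2.73 and 2.25 CPM in mKO. Here mKO rose too, by 0.98 ± 0.21 against 2.56 ± 0.20 in flox/flox, with an interaction of -1.57 ± 0.29 (SE) (edgeR adjusted p = 0.0671). Incenp, of the chromosomal passenger complex, had an interaction of -1.10 ± 0.20 (SE), and Knl1, a kinetochore scaffold, -2.77 ± 0.57 (SE). The condensin genes Ncapg2 and Smc4, which compact chromosomes, had -1.25 ± 0.23 (SE) and -0.84 ± 0.15 (SE). At unloading Smc4 read 12.1, 10.9 and 11.8 CPM in flox/flox and 12.3, 10.2 and 13.5 CPM in mKO. At reloading Smc4 read 20.7, 21.5 and 18.9 CPM in flox/flox and 10.9, 12 and 12.3 CPM in mKO. Only the flox/flox reloading libraries stood apart. Tubb5, a tubulin of dividing and migrating cells, had -0.79 ± 0.15 (SE): at unloading it read 33.9, 36 and 37.8 CPM in flox/flox and 35.5, 35.8 and 37.6 CPM in mKO. At reloading Tubb5 read 126, 131 and 107 CPM in flox/flox and 66.5, 85.4 and 60.6 CPM in mKO. Both genotypes rose, without overlap between them at reloading.

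All 30 genes of the mitosis and cytokinesis list had an interaction below 0, with a median of -1.28, against 0.0015 over all tested genes. At an unadjusted p under 0.05, 20 were lower and 0 higher, while 6.35% of all genes were lower. The authors' deposited table calls 5 of them lower (0.729% of all genes): Anln, Prc1, Ccnb2, Tpx2 and Racgap1. The median change of the list was 3.71 in flox/flox and 1.83 in mKO. In flox/flox 29 members were called higher (17% of all genes) and 0 lower. In mKO 23 were called higher (9.53% of all genes) and 1 lower. The proliferation marker Mki67 changed by 4.51 in flox/flox and 3.49 in mKO, an interaction of -1.02 with an unadjusted edgeR p of 0.122. At unloading Mki67 read 0.453, 0.434 and 2.43 CPM in flox/flox and 0.437, 0.569 and 0.598 CPM in mKO. Replicate 3 of flox/flox unloading stood apart, and without flox/flox unloading replicate 3 the interaction of Mki67 was -2.34, with an unadjusted edgeR p of 1.21e-05. Cyclin B2 gene Ccnb2 changed by 4.86 and 1.37, an interaction of -3.49. The DNA replication list was below 0 in 29 of 31 genes with a median of -0.50. At an unadjusted p under 0.05, 13 were lower (6.35% of all genes). Dnmt1, the methyltransferase that copies DNA methylation at replication, was among the 20 genes. At unloading Dnmt1 read 13.5, 14 and 14.4 CPM in flox/flox and 13.8, 13.8 and 14.2 CPM in mKO. At reloading Dnmt1 read 27.7, 27.9 and 26.4 CPM in flox/flox and 17.2, 20.1 and 18.5 CPM in mKO. Its interaction was -0.56 ± 0.11 (SE) (edgeR adjusted p = 0.0671). Mcm3, part of the replicative helicase, had -0.69 ± 0.16 (SE) (edgeR adjusted p = 0.143). Leaving out single libraries moved the median of the mitosis list between -1.76 and -1.16.

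Ptgs2 (ENSMUSG00000032487, chromosome 1), also among the 20 genes, encodes cyclooxygenase-2, which makes prostaglandins. At unloading Ptgs2 read 0.288, 0.248 and 0.511 CPM in flox/flox and 1.16, 0.501 and 0.513 CPM in mKO. At reloading Ptgs2 read 2.26, 6.41 and 3.85 CPM in flox/flox and 0.526, 0.985 and 0.492 CPM in mKO. The flox/flox reloading libraries were above the other 9, which overlapped, and they differed among themselves by more than the mKO ones. The interaction was -3.68 ± 0.66 (SE), made of a change of 3.57 ± 0.47 in flox/flox and -0.11 ± 0.46 in mKO (edgeR adjusted p = 0.0671). Il1b, the gene of interleukin-1β, fell under the 1 CPM asked of the other genes and was named because edgeR called it in opposite directions in the 2 genotypes. Its raw counts at unloading were 3, 0 and 4 in flox/flox and 18, 15 and 11 in mKO. At reloading they were 12, 25 and 15 in flox/flox and 0, 2 and 2 in mKO. The groups did not overlap at either time and swapped order, at counts too low for a fold change that can be relied on (edgeR adjusted p = 0.0671 for the interaction). Of 28 tested genes in the cytokine and NF-kB list, 25 had an interaction below 0, with a median of -0.49. At an unadjusted p under 0.05, 9 were lower (6.35% of all genes) and 0 higher. The authors' deposited table calls 4 lower (0.729% of all genes): Ptgs2, Il1b, Il4ra and Il6.

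Chemokine genes recruit leukocytes, and 17 of 19 had an interaction below 0, with a median of -0.83. At an unadjusted p under 0.05, 6 were lower (6.35% of all genes) and 0 higher. Ccl2, the main monocyte attractant, was the lowest p of that list. At unloading Ccl2 read 0.391, 0.434 and 0.756 CPM in flox/flox and 2.29, 0.614 and 0.641 CPM in mKO. At reloading Ccl2 read 2.94, 2.82 and 1.46 CPM in flox/flox and 0.411, 0.853 and 0.922 CPM in mKO. Replicate 1 of mKO unloading was high, and without mKO unloading replicate 1 the list median was -0.46. The interaction of Ccl2 was -2.87 ± 0.66 (SE) (edgeR adjusted p = 0.143). Cxcl10, a chemokine induced by interferon, had -2.47 ± 0.64 (SE) (edgeR adjusted p = 0.162). In the interferon response list 27 of 32 were below 0, and 5 were lower at an unadjusted p under 0.05 (6.35% of all genes). The list was shifted less, with a median of -0.25. That median was -0.12 without flox/flox unloading replicate 3, -0.15 without replicate 1 and -0.38 without replicate 2 of the same group. Its median changes were 0.70 in flox/flox and 0.49 in mKO.

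Of 29 macrophage and monocyte markers tested, 27 had an interaction below 0, with a median of -0.84, and 21 were lower and 0 higher at an unadjusted p under 0.05 (6.35% lower among all genes). The list changed by a median of 1.25 in flox/flox and 0.37 in mKO. In flox/flox 22 genes were called higher (17% of all genes) and 1 lower. In mKO 6 were called higher (9.53% of all genes) and 1 lower. Lgals3, the lectin galectin-3 of activated macrophages, had the lowest p. At unloading Lgals3 read 6.03, 5.96 and 8.81 CPM in flox/flox and 6.38, 4.92 and 4.34 CPM in mKO. At reloading Lgals3 read 12.7, 14.6 and 13.2 CPM in flox/flox and 5.28, 5.78 and 3.91 CPM in mKO. It rose in flox/flox by 0.96 ± 0.17 and did not pass in mKO, at -0.062 ± 0.18, and the interaction was -1.03 ± 0.25 (SE) (edgeR adjusted p = 0.148). Fcgr1, a receptor for antibody on monocytes and macrophages, followed with -2.04 ± 0.49 (SE) (edgeR adjusted p = 0.148). At unloading Fcgr1 read 0.412, 0.703 and 0.45 CPM in flox/flox and 0.524, 0.887 and 0.427 CPM in mKO. At reloading Fcgr1 read 2.24, 3.32 and 2.11 CPM in flox/flox and 0.686, 0.89 and 0.594 CPM in mKO. In both genes the genotypes overlapped at unloading, and the flox/flox reloading libraries alone stood above the rest. The authors' deposited table calls Lgals3, Fcgr1, Cx3cr1 and Msr1 lower, as it does 0.729% of all genes. Trem2 changed by 2.28 and 1.88, an interaction of -0.40, Spp1 had -0.16, and Mertk and Gpnmb were above 0 at 0.08 and 0.20. Each of these 4 changed sign without at least 1 library.

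Summed over the 30 macrophage markers, levels were 216 to 260 CPM in flox/flox unloading and 156 to 223 CPM in mKO unloading. They were 449 to 654 CPM in flox/flox reloading and 214 to 310 CPM in mKO reloading, with no overlap between genotypes at reloading. Whether this sum moved with the genes of division, cytokines and matrix from library to library was not tested, nor was its part in those results. MHC class II and dendritic cell genes, which present antigen, were below 0 in 14 of 15 with a median of -0.81, which was -0.49 without mKO unloading replicate 1. H2-Aa had -0.83 ± 0.28 (SE) (edgeR adjusted p = 0.293). Their sums were 173 to 229 CPM in flox/flox reloading and 99.4 to 113 CPM in mKO reloading, against 89.6 to 131 and 76.6 to 126 CPM at unloading. Neutrophil markers summed to at most 18.4 CPM in any of the 12 libraries, and 0 of 9 tested passed an unadjusted p under 0.05. T and NK cell markers, at 2.82 to 4.78 CPM in sum, also had 0 of 7. Endothelial markers were below 0 in 14 of 18 with a median of -0.19, and 4 were lower at an unadjusted p under 0.05 (6.35% of all genes). The authors' deposited table calls 2 of them lower (0.729% of all genes): Apln and Pecam1, the latter the adhesion molecule between endothelial cells. At unloading Pecam1 read 79.6, 75.7 and 77.9 CPM in flox/flox and 76.2, 75.1 and 73.4 CPM in mKO. At reloading Pecam1 read 103, 119 and 107 CPM in flox/flox and 81.9, 80.8 and 72.6 CPM in mKO. The interaction of Pecam1 was -0.43 ± 0.10 (SE) (edgeR adjusted p = 0.145).

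**Figure D5:**
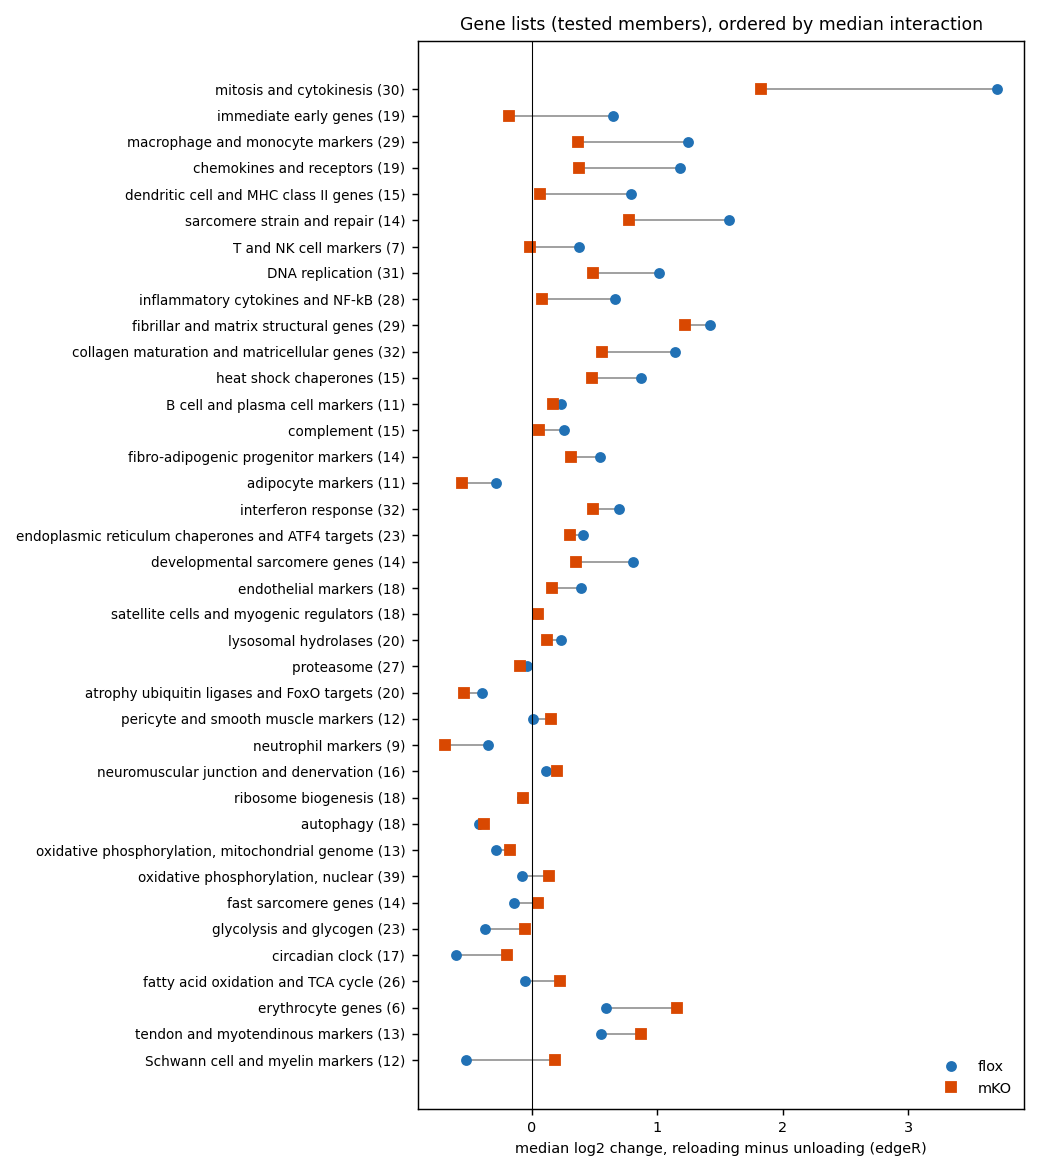
Median log2 change from unloading to reloading (edgeR) of each gene list with at least 5 tested genes, in flox/flox (circles) and mKO (squares), ordered by the median interaction, with the number of tested genes in brackets. Division, immediate early, macrophage and chemokine genes have the mKO square to the left of the flox/flox circle, and Schwann cell, tendon and energy metabolism genes have it to the right.

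Immediate early genes are transcribed within minutes of stress, stretch or growth signals. All 19 had an interaction below 0, with a median of -0.93, and 8 were lower at an unadjusted p under 0.05 (6.35% of all genes). Their median change was 0.64 in flox/flox and -0.18 in mKO. Atf3, a stress-induced transcription factor, varied widely between libraries. At unloading Atf3 read 3.01, 4.8 and 5.33 CPM in flox/flox and 26.3, 18.6 and 3.61 CPM in mKO. At reloading Atf3 read 49, 37.4 and 19.4 CPM in flox/flox and 13.8, 21.7 and 4.51 CPM in mKO. The mKO unloading libraries spanned from the flox/flox unloading level to that of flox/flox reloading, so that the interaction of -3.28 ± 0.81 (SE) drew on both times (edgeR adjusted p = 0.149). Fosl2, a partner of the AP-1 complex, was steadier. At unloading Fosl2 read 22.1, 19.8 and 21.9 CPM in flox/flox and 21.6, 22.7 and 23.1 CPM in mKO. At reloading Fosl2 read 28.8, 41.7 and 29.3 CPM in flox/flox and 22.2, 24.5 and 20.2 CPM in mKO. Its interaction was -0.66 ± 0.17 (SE) (edgeR adjusted p = 0.156), and the authors' deposited table calls it with Klf4 and Klf6. Otud1, a deubiquitinase among the 20 genes, also varied in mKO unloading. At unloading Otud1 read 11.6, 14.6 and 13.4 CPM in flox/flox and 48, 18.7 and 21.1 CPM in mKO. At reloading Otud1 read 82.8, 49.2 and 44 CPM in flox/flox and 18.9, 35.1 and 14.1 CPM in mKO. Its genotypes did not overlap at either time, with mKO higher at unloading and lower at reloading, so that the interaction drew on both times. Its mKO unloading and mKO reloading overlapped, and the interaction was -2.51 ± 0.50 (SE) (edgeR adjusted p = 0.0971).

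Of 29 fibrillar and structural matrix genes, 26 were called higher in flox/flox (17% of all genes) and 1 lower. In mKO 25 were called higher (9.53% of all genes) and 0 lower. The median changes of these 29 genes were 1.42 in flox/flox and 1.22 in mKO. Their median interaction was -0.42, and 6 were lower at an unadjusted p under 0.05 (6.35% of all genes). It was -0.19 without mKO unloading replicate 2 and -0.26 without flox/flox reloading replicate 2. The genes of type I collagen, Col1a1 at -0.12 and Col1a2 at 0.06, each changed sign without at least 1 library. Col8a1, a short-chain collagen, had -1.01 ± 0.24 (SE) (edgeR adjusted p = 0.148). At unloading Col8a1 read 9.57, 11.7 and 13.1 CPM in flox/flox and 8.73, 11.1 and 10.4 CPM in mKO. At reloading Col8a1 read 54.9, 69.5 and 48.2 CPM in flox/flox and 26.8, 30.1 and 18.4 CPM in mKO. Both genotypes rose without overlap between them at reloading. The list of collagen-modifying and matricellular genes had 28 of 32 below 0 and a median of -0.41 (-0.27 without flox/flox reloading replicate 2). Of that list 13 were lower at an unadjusted p under 0.05 (6.35% of all genes). Its leading members were Ccn2 and Ccn1, matricellular proteins induced by stretch through YAP and other factors. At unloading Ccn2 read 35.3, 34.5 and 20.6 CPM in flox/flox and 37.4, 35.8 and 28 CPM in mKO. At reloading Ccn2 read 41.3, 44.2 and 40.7 CPM in flox/flox and 10.9, 14.4 and 19.4 CPM in mKO. Ccn2 fell in mKO by 1.18 ± 0.26 and was at 0.48 ± 0.25 in flox/flox, where it did not pass, and the interaction was -1.66 ± 0.36 (SE) (edgeR adjusted p = 0.131). Ccn1 had -1.67 ± 0.36 (SE) (edgeR adjusted p = 0.131). It fell in mKO by 0.99 ± 0.26, and its change in flox/flox, 0.68 ± 0.26, did not pass.

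Adam12, Cthrc1 and Vim, genes of activated mesenchymal cells, were among the 20. Adam12, a membrane metalloprotease, rose from a low level. At unloading Adam12 read 0.535, 0.62 and 0.695 CPM in flox/flox and 0.611, 1.18 and 0.727 CPM in mKO. At reloading Adam12 read 7.57, 9.1 and 5.42 CPM in flox/flox and 1.65, 2.73 and 1.93 CPM in mKO. Its interaction was -2.24 ± 0.42 (SE) (edgeR adjusted p = 0.0671). Cthrc1, secreted by activated fibroblasts, had -2.19 ± 0.42 (SE) (edgeR adjusted p = 0.0677). At unloading Cthrc1 read 0.288, 0.455 and 0.531 CPM in flox/flox and 0.284, 0.592 and 0.427 CPM in mKO. At reloading Cthrc1 read 6.73, 8.17 and 6.02 CPM in flox/flox and 1.35, 1.95 and 1.35 CPM in mKO. Each rose in both genotypes, and the mKO reloading libraries lay between unloading and flox/flox reloading. Vim, the intermediate filament vimentin, was the most abundant of the 20. At unloading Vim read 118, 113 and 107 CPM in flox/flox and 101, 104 and 121 CPM in mKO. At reloading Vim read 308, 308 and 304 CPM in flox/flox and 173, 209 and 168 CPM in mKO. Both genotypes rose, and the interaction was -0.69 ± 0.14 (SE) (edgeR adjusted p = 0.0971). Slfn9, a Schlafen gene, had -1.83 ± 0.35 (SE), Lbh, a transcription cofactor, -0.82 ± 0.15 (SE), and Mcam, an adhesion molecule of vessels, -0.70 ± 0.13 (SE) (edgeR adjusted p = 0.0671 for each). General fibro-adipogenic progenitor markers had a smaller median of -0.30. Summed, those markers were 1443 to 2100 CPM in flox/flox unloading and 1569 to 1841 CPM in mKO unloading. At reloading the sums were 1208 to 1381 CPM in flox/flox and 1382 to 1432 CPM in mKO. The sum at reloading was thus not lower in mKO, unlike the list median.

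Lists of muscle fibre genes had medians on both sides of 0. The sarcomere strain and repair list, which gathers sensors of stretch and membrane repair proteins, was below 0 in 13 of 14 genes with a median of -0.64. Of that list 4 were lower at an unadjusted p under 0.05 (6.35% of all genes). The median was -0.38 without flox/flox unloading replicate 1 and -0.43 without mKO unloading replicate 1. Ankrd1, a titin-binding protein induced by load, led it. At unloading Ankrd1 read 10.1, 9.45 and 20.4 CPM in flox/flox and 24.4, 21.6 and 14.3 CPM in mKO. At reloading Ankrd1 read 146, 133 and 102 CPM in flox/flox and 44.4, 80.8 and 22.8 CPM in mKO. It rose in both genotypes, by 3.26 ± 0.39 and 1.30 ± 0.37, and the interaction was -1.96 ± 0.52 (SE) (edgeR adjusted p = 0.169). Heat shock chaperones were below 0 in 14 of 15 with a median of -0.41. At an unadjusted p under 0.05, 7 were lower (6.35% of all genes). The neuromuscular junction and denervation list was below 0 in 8 of 16 genes with a median of 0.013. At an unadjusted p under 0.05, 2 were lower (6.35% of all genes) and 1 higher (4.16% of all genes). Satellite cell and myogenic regulator genes were below 0 in 12 of 18, with a median of -0.17. That median was -0.077 without flox/flox reloading replicate 1 and -0.11 without mKO unloading replicate 3. Only 1 was lower at an unadjusted p under 0.05 (6.35% of all genes), and 0 were higher. The smallest p of that list was that of Myog, a driver of muscle cell differentiation, at -1.32 ± 0.37 (SE) (edgeR adjusted p = 0.193). At unloading Myog read 5.1, 5.69 and 5.99 CPM in flox/flox and 6.2, 7.42 and 5.86 CPM in mKO. At reloading Myog read 29.5, 23.6 and 17.9 CPM in flox/flox and 7.7, 18.1 and 7.19 CPM in mKO. Replicate 2 of mKO reloading was nearer to flox/flox than the other 2. Of 20 atrophy and FoxO target genes, 10 were called lower in flox/flox (14.9% of all genes) and 2 higher. In mKO 11 were called lower (8.81% of all genes) and 0 higher. The median interaction of this list was -0.020. Within that list Mt2 and Mt1, metallothioneins, stood apart at -2.27 ± 0.56 (SE) and -1.15 ± 0.32 (SE) (edgeR adjusted p = 0.149 and 0.188), though reads of such close copies may be shared between them.

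Lists of energy metabolism and of the nerve sheath had medians above 0. All 39 nuclear genes of oxidative phosphorylation had an interaction above 0, with a median of 0.21 and changes of -0.084 in flox/flox and 0.14 in mKO. Of these 4 were higher at an unadjusted p under 0.05 (4.16% among all genes). Cox8b, a subunit of cytochrome oxidase, had 0.36 ± 0.13 (SE) (edgeR adjusted p = 0.341). At unloading Cox8b read 148, 155 and 145 CPM in flox/flox and 154, 143 and 154 CPM in mKO. At reloading Cox8b read 94.3, 98.8 and 92.4 CPM in flox/flox and 140.2, 102 and 126 CPM in mKO. Its mKO reloading libraries overlapped neither with unloading nor with flox/flox reloading. Fatty acid oxidation and citric acid cycle genes were above 0 in 25 of 26 with a median of 0.27, and glycolysis and glycogen genes in 20 of 23 with a median of 0.23. At an unadjusted p under 0.05, 4 of the 26 fatty acid oxidation and citric acid cycle genes were higher (4.16% of all genes). So were 8 of the 23 glycolysis and glycogen genes. Pfkfb1, a regulator of glycolysis, had 0.90 ± 0.24 (SE) (edgeR adjusted p = 0.166), and the authors' deposited table calls it. At unloading Pfkfb1 read 63.5, 70.1 and 74.5 CPM in flox/flox and 50.5, 56.3 and 56.1 CPM in mKO. At reloading Pfkfb1 read 32.3, 35.4 and 44.3 CPM in flox/flox and 66.6, 36.9 and 60.3 CPM in mKO. At unloading the mKO libraries all lay below the flox/flox ones. Replicate 2 of mKO reloading lay within the flox/flox reloading range, and the other 2 above it. All 14 fast sarcomere genes were above 0, with a median of 0.22 and 0 at an unadjusted p under 0.05. CPM values are shares of a library, and the fast sarcomere genes summed to 155130 to 172034 CPM in flox/flox reloading and 173204 to 205871 CPM in mKO reloading. These lists kept their sign when scaled to total counts, with medians of 0.10 for oxidative phosphorylation, 0.17 for fatty acid oxidation, 0.13 for glycolysis and 0.12 for fast sarcomere genes. Without mKO reloading replicate 1 the medians of oxidative phosphorylation and fatty acid oxidation were 0.13 and 0.17, without mKO reloading replicate 2 that of oxidative phosphorylation was 0.32, and without flox/flox unloading replicate 3 that of glycolysis was 0.15.

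Schwann cells wrap the axons of motor nerves in myelin. Of 12 tested markers 10 had an interaction above 0, with a median of 0.62. At an unadjusted p under 0.05, 6 were higher (4.16% of all genes) and 1 lower (6.35% of all genes). The median change was -0.53 in flox/flox and 0.19 in mKO. Prx, the myelin protein periaxin, had 0.82 ± 0.30 (SE) (edgeR adjusted p = 0.356). At unloading Prx read 31.8, 32.3 and 34.2 CPM in flox/flox and 13.7, 27.5 and 26.8 CPM in mKO. At reloading Prx read 18.4, 16.2 and 27.9 CPM in flox/flox and 24, 28 and 24 CPM in mKO. For Prx the genotypes did not overlap at unloading, where mKO was lower, and they did at reloading. The markers summed to 409 to 434 CPM in flox/flox unloading and 202 to 390 CPM in mKO unloading, then to 236 to 401 and 340 to 397 CPM at reloading. Below 0 were Egr2, which drives myelination and is also an immediate early gene, at -1.53 ± 0.42 (SE), and Ngfr, a neurotrophin receptor named after its value was seen, at -0.27.

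Tendon and myotendinous markers had a median interaction of 0.44, with 9 of 13 above 0, and 7 were called higher in each genotype (17% of all genes in flox/flox and 9.53% in mKO). At an unadjusted p under 0.05, 1 was higher (4.16% of all genes) and 1 lower (6.35% of all genes). Ankrd1, described above, is also on this list and went the other way. Summed, the markers were 478 to 595 CPM in flox/flox unloading and 373 to 555 CPM in mKO unloading. At reloading the sums were 789 to 1152 CPM in flox/flox and 705 to 1075 CPM in mKO, which overlapped. Without mKO reloading replicate 2 the median interaction was 0.22. Col22a1, a collagen of the myotendinous junction, had 0.75 ± 0.26 (SE) (edgeR adjusted p = 0.318). At unloading Col22a1 read 39.3, 32.7 and 42.1 CPM in flox/flox and 28.7, 44.5 and 35.5 CPM in mKO. At reloading Col22a1 read 23.1, 32.1 and 35.5 CPM in flox/flox and 46.3, 35.6 and 63.9 CPM in mKO. The genotypes overlapped at unloading and not at reloading. Of 17 clock genes, 11 were called lower in flox/flox (14.9% of all genes) and 3 in mKO (8.81% of all genes), at median changes of -0.61 and -0.20, and the difference between these counts was not tested. Their median interaction of 0.24 ran from 0.11 (without mKO reloading replicate 3) to 0.40 (without mKO reloading replicate 2), and was 0.13 without mKO reloading replicate 1, 0.16 without mKO unloading replicate 2 and 0.37 without mKO unloading replicate 1. Per1, a clock gene that also responds to glucocorticoids, went the other way at -0.82 ± 0.37 (SE) (edgeR adjusted p = 0.444). At unloading Per1 read 126, 123 and 75.2 CPM in flox/flox and 97.8, 76.4 and 100.1 CPM in mKO. At reloading Per1 read 58.4, 58.9 and 79.2 CPM in flox/flox and 35.4, 21.3 and 37.4 CPM in mKO. It fell in both genotypes and was lower in mKO at reloading. Ribosome biogenesis genes and proteasome genes had medians of 0.031 and -0.048, near the 0.0015 of all genes.

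The 3 genes among the 20 with a higher change in mKO were Dmac2, Col9a1 and Rasgef1a. Dmac2 (ENSMUSG00000057229, chromosome 7), an assembly factor of respiratory complex I, was called in opposite directions, down in flox/flox by 0.29 ± 0.069 and up in mKO by 0.22 ± 0.069. At unloading Dmac2 read 36.2, 40.3 and 36.4 CPM in flox/flox and 34.6, 34.7 and 34.7 CPM in mKO. At reloading Dmac2 read 29.7, 30.6 and 31.7 CPM in flox/flox and 43, 36.9 and 41.4 CPM in mKO. The genotypes did not overlap at either time and swapped order, and the interaction was 0.52 ± 0.10 (SE) (edgeR adjusted p = 0.0671). Col9a1, a chain of collagen IX, had 1.22 ± 0.25 (SE) (edgeR adjusted p = 0.105). At unloading Col9a1 read 5.25, 4.05 and 3.31 CPM in flox/flox and 3.1, 3.3 and 3.27 CPM in mKO. At reloading Col9a1 read 2.53, 2.22 and 2.93 CPM in flox/flox and 4.55, 4.87 and 4.28 CPM in mKO. Rasgef1a, an exchange factor for Ras-family proteins, had 1.40 ± 0.29 (SE) (edgeR adjusted p = 0.115). At unloading Rasgef1a read 1.38, 1.49 and 1.31 CPM in flox/flox and 0.852, 0.819 and 0.855 CPM in mKO. At reloading Rasgef1a read 0.49, 0.5 and 0.651 CPM in flox/flox and 0.777, 0.947 and 0.901 CPM in mKO. Genotypes were already apart in Rasgef1a at unloading, with mKO lower, and swapped order at reloading. Besides Il1b and Dmac2, only Tmem136 and Gal3st1 were called by edgeR in opposite directions in the 2 genotypes. Gal3st1 makes sulfatide, a lipid of myelin, and had 2.37 ± 0.54 (SE) (edgeR adjusted p = 0.143) at 0.15 to 0.81 CPM. Tmem136 had 0.91 ± 0.22 (SE) (edgeR adjusted p = 0.15).

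The 145 genes called in the authors' deposited table include the 20 and were chosen on the same contrast, so that their directions are a description. In edgeR 133 of them changed with reloading in flox/flox (31.9% of all tested genes) and 58 in mKO (18.3% of all tested genes). All 119 that rose in flox/flox (17% of all tested genes) had a lower change in mKO. The 14 that fell in flox/flox (14.9% of all tested genes) had a higher one. At reloading the 3 mKO libraries lay below the 3 flox/flox libraries in 126 of the 129 lower genes (12.8% of all tested genes) and above them in 14 of the 16 higher genes (9.58% of all tested genes). At unloading the genotypes overlapped in 117 of the 129 and in 7 of the 16, where 9.29% of all tested genes did not overlap. Between genotypes at reloading edgeR called 130 of the 145, against 3.85% lower and 1.06% higher of all tested genes. Between genotypes at unloading it called 0 (0% of all tested genes). The contrasts share libraries with the interaction, so that these counts describe the 145 genes. The log2 fold changes printed in the authors' deposited table lay closer to 0 than the fitted ones in all 145, for example -2.87 for Ptgs2 where the DESeq2 fit here gave -3.69. When DESeq2 was refitted without each of the 12 libraries, 17 of the 145 were called every time: Adam12, Anln, Carhsp1, Ccnb2, Cthrc1, Dmac2, Dnmt1, Incenp, Lbh, Mcam, Ncapg2, Prc1, Ptgs2, Slfn9, Smc4, Tubb5 and Vim.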

How the data were processed

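Polyadenylated RNA from 18 gastrocnemius samples was sequenced, with 3 libraries in each of 6 groups. Per the submitters' processing notes, the tools were STAR 2.7.3a and featureCounts 2.0.3 and the build GRCm38.p6; per the file headers, counting used featureCounts 1.6.4 and annotation release 94. Gene counts were deposited unscaled. The command in their header sets neither strandedness, pairing nor multi-mapping, so that antisense, overlapping and near-identical genes are uncertain. The authors' deposited DESeq2 tables hold log2 fold changes and p-values with adjusted p-values, and their mean column is a signal of normalised counts; 1 such table was used, as the authors' values.

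Of 54532 genes, 17833 passed edgeR's default filter on low counts. They were tested with edgeR 4.0.16 (TMM factors, quasi-likelihood F test, 6 group means, 12 residual degrees of freedom, Benjamini-Hochberg adjustment over all tested genes) in R 4.3.3, and called at an adjusted p under 0.05. Total counts ran from 45069595 to 51592566 per library, and their number limits the precision of low genes; edgeR's common dispersion was 0.0197. Standard errors (SE) are the fold change over the root of its F statistic. CPM are counts scaled to a fixed total with TMM factors. Response size used log2 CPM with a prior count of 2. The test scripts were tested on simulated data. No pair of replicate libraries agreed to within counting error.

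The genes named were Zfp697, then, since fewer than 20 were called, the 20 smallest interaction p whose mean reached 1 CPM in any of the 4 groups and no clone name, then genes called in both genotypes with opposite signs. For each of 39 lists, the 2 smallest p and the most abundant member could be named, and others named were chosen after their values were seen. The comparison, lists and rule were chosen with earlier results of these data known. Promoter sequences came from RefSeq (GRCm38.p6). Alternatives were RLE or total-count scaling, no filter or 1 CPM in 3 libraries, a replicate block, the 12 libraries alone, DESeq2 1.42.0, limma 3.58.1 voom, and leaving out each library. The edgeR likelihood-ratio test and the refits of DESeq2 without single libraries were added after seeing the data. Results for 2 genes are not reported here.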

Additional observations from a re-analysis of the deposited data

How the results depend on the processing

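The count of 0 interaction genes held with RLE or total-count scaling, the filter of 1 CPM in 3 libraries and the 12 libraries alone. It became 10 with a replicate block, 1 with limma voom, 144 with DESeq2, 132 with the edgeR likelihood-ratio test and 564 with no low-count filter. The labels do not say whether replicate numbers pair the samples. Deviations of same-numbered libraries correlated at -0.074 to 0.0996, which cannot by itself settle whether they were paired. Without single libraries the edgeR count ran from 0 to 98 and the DESeq2 count from 19 (without flox/flox reloading replicate 2) to 568 (without mKO reloading replicate 2), the latter with 138 of the authors' 145 genes. Between genotypes at reloading, 875 calls became 1390 with DESeq2, 1724 with voom, 1557 with no filter and 1485 with total counts, and 127 (without mKO reloading replicate 3) to 1630 (without mKO reloading replicate 2) without single libraries. At unloading, 0 became 133 with no filter. The mKO change ran from 2058 (without mKO unloading replicate 1) to 3308 calls without single libraries, and was 2107 without mKO unloading replicate 3. The response size kept its sign and did not pass under any setting run, replicate block included (-0.13). None of the named genes above, other than those named as examples of a list, changed sign. Of the list medians given, those of the neuromuscular, atrophy, proteasome and ribosome biogenesis lists changed sign under at least 1 setting. Total-count scaling moved the median interaction of all genes to -0.091. The causes were not tested. Genes under 1 CPM, such as Il1b, rest on few reads.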
